A study of Komagataella phaffii with 102 samples.

Results

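Among the 5116 genes with counts, 38 were lower in the yeast strain Y-17741 than in 3 reference strains in every culture condition that was sampled. The level of a gene in a library was its count per 1000000 counts of that library (CPM), which was transformed to log2(CPM + 1) and averaged per strain and condition. A gene was included where Y-17741 lay at least 1 log2 unit below the mean of Y-12729, Y-48123 and Y-48124 in each of 3 conditions and where the gene lay at least 50 kb from a contig end. There were 4961 genes at that distance from an end, and 38 of them met the threshold. A further 13 genes met it but lay nearer to an end and were left out, and 15 genes lay at least 1 log2 unit above the reference strains in all 3 conditions. The genes were thus chosen by the measured levels of Y-17741 and the reference strains, and the differences between these strains are given as a description, with no test.

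The study compared 11 nontransgenic strains of Komagataella phaffii, the yeast also known as Pichia pastoris and used as a host for recombinant proteins. Cultures in multi-well plates were sampled after 24 h in glycerol medium (24 h glycerol), and then after a further 24 h in either fresh glycerol medium (48 h glycerol) or methanol medium (methanol), with glycerol at 4% and methanol at 1.5% by volume. None of the strains carried an expression construct. Y-17741 and YB-378 are isolates from an Emory oak and an elm, and YB-4289, Y-7556, YB-4290 and Y-11430 are isolates from black oak. Of the reference strains, Y-12729 came from Mexico, the origin of Y-48123 is not known, and Y-48124, like X-33, is a revertant of GS115, which is itself a mutant of Y-11430. The genomes of Y-7556 and YB-4290 were identical in the study.

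There were 36 libraries at 24 h glycerol, 28 at 48 h and 38 in methanol. They included 3 libraries of Y-17741 at 24 h glycerol, 2 at 48 h and 4 in methanol, set against 9, 7 and 10 libraries of the reference strains. Y-48123 had a single library at 48 h glycerol. It had the same weight in the reference mean as the strains with more libraries. Y-17741 libraries held between 800311 and 4618043 counts and reference libraries between 716529 and 5307142. Over all strains the range was 70901, in X-33 methanol replicate C, to 16336681 in a YB-378 library at 48 h glycerol. Reference libraries did not all resemble each other. The libraries Y-12729 methanol B, Y-48123 methanol C, Y-48124 methanol C and Y-48124 48 h glycerol D lay apart from the other libraries of their strains. In Y-48123 methanol C, 22 of the 38 genes lay below all 7 methanol libraries of the reference strains that did not lie apart and 7 lay above them. The same was not counted over all genes, so these numbers say nothing particular about the 38. Whether the labels of the libraries that lay apart are right was not tested, and 3 of them enter the methanol means of the reference strains. Without these 4 libraries, 36 of the 38 genes still met the threshold. GQ67_04699 and GQ67_04140, named after their values were seen, did not, as their differences in methanol moved from -1.31 to -0.09 and from -1.17 to -0.82 log2 units. These libraries were singled out after the data were seen.

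K. phaffii can grow on methanol as its carbon source, and a change from glycerol to methanol is known to induce the enzymes of methanol oxidation and assimilation strongly. Strains of a yeast species differ in transcript levels through differences in regulatory sequence, in the regulators themselves and in gene content. In RNA sequencing against a single reference genome, a gene that is missing from a strain or that differs from the reference in sequence also yields fewer assigned reads. Here the reads of every strain were assigned to the genes of Y-11430, and the study found many sequence differences from Y-11430 in Y-17741, YB-378 and YB-4289. Fewer transcripts and fewer assignable reads therefore cannot be told apart in the values of those strains. The identifiers of the 38 genes matched 0 of 5040 genes in the RefSeq table of the species, and 0 of the 38 had a symbol in the sources used here, so they are given by identifier with no function.

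The median difference of the 38 genes between Y-17741 and the reference strains was -1.61 log2 units at 24 h glycerol, -2.16 at 48 h and -2.03 in methanol. Over all genes at least 50 kb from an end the medians were -0.02, 0.23 and -0.01, so the median gene of Y-17741 was itself higher by 0.23 at 48 h glycerol. With CPM rescaled by trimmed means (TMM), 37 of the 38 genes still met the threshold. There were 12, 21 and 19 of the 38 genes at least 2 log2 units lower in the 3 conditions. The deepest difference fell at 24 h glycerol for 6 genes, at 48 h glycerol for 14 and in methanol for 18. Of all genes at least 50 kb from an end, 4.37%, 7.78% and 14.4% were at least 1 log2 unit lower. The rule used these values, and the shares of all genes for these counts were not computed, so nothing is read from them. Members just inside the threshold were GQ67_04701 with -1.03 at 48 h glycerol, GQ67_04962 with -1.05 in methanol and GQ67_03166 with -1.05 at 24 h glycerol. The nearest genes outside it were GQ67_03039 with -0.999 in methanol, GQ67_04845 with -0.997 at 24 h glycerol and GQ67_04687 with -0.985 at 24 h glycerol.

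The single libraries of Y-17741 were in most cases below all libraries of the reference strains. At 24 h glycerol every Y-17741 library lay below every reference library for 35 of the 38 genes, where 14.7% of all 5116 genes did. The count was 34 at 48 h glycerol, against 13.8% of all genes. In methanol it was 26, against 10.5% of all genes, and 37 without the 4 libraries that lay apart, against 23.6%. When all 10 other strains were set against Y-17741, its libraries were below every other library for 11, 24 and 14 of the 38 genes, against 3.85%, 8.62% and 4.24% of all genes. The rule used the Y-17741 and reference libraries, so nothing is read from these counts.

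**Figure D1:**
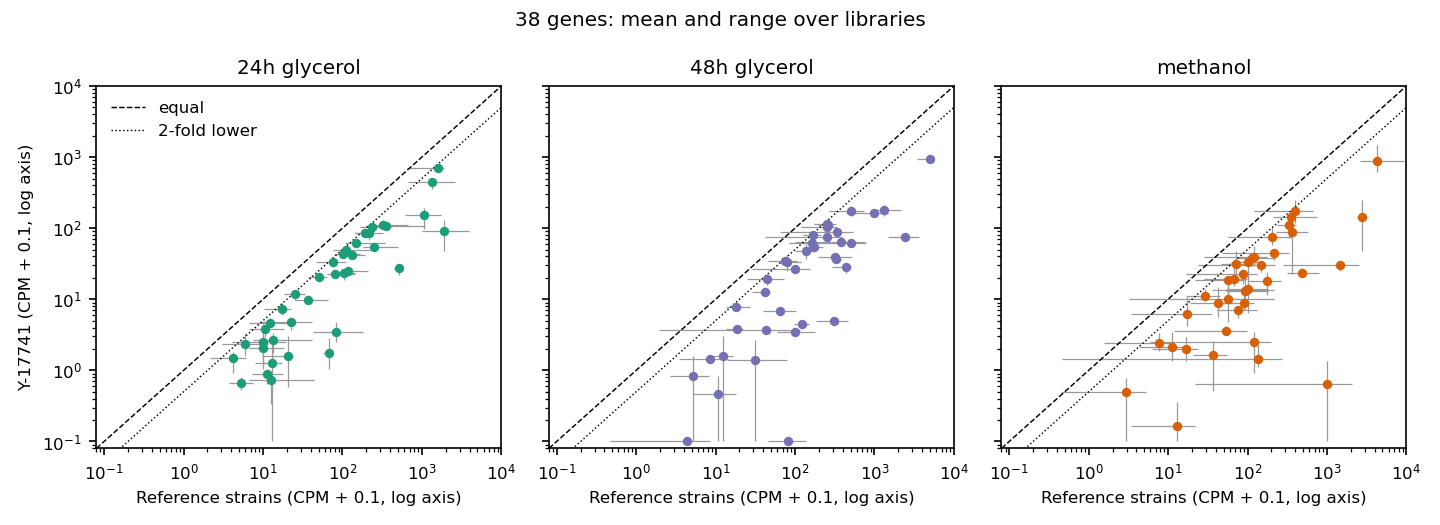
Mean CPM of each of the 38 genes in the reference strains (horizontal) and in Y-17741 (vertical) in the 3 conditions, on log axes with 0.1 added, where bars span the lowest to the highest library. Points lie below the line of equal levels, and the widest horizontal bar in methanol is that of GQ67_01039, from 0.37 to 268 CPM among 10 reference libraries, while GQ67_00198 ranged from 22.0 to 2047 CPM.

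The 38 genes were spread over all 4 chromosomes, with 13 on chromosome 1, 11 on chromosome 2, 6 on chromosome 3 and 8 on chromosome 4. They made up 0.851%, 0.870%, 0.5004% and 0.826% of the genes on those chromosomes that lie at least 50 kb from an end. There were 15 on the plus strand, or 39.5% against 50.8% of all genes, and 23 on the minus strand. The median gap from a member to the next was 141 kb. All but GQ67_04140, which has 3 exons, have a single exon, a share of 97.4% against 95.3% of all genes. Their median exon length was 1839.5 bp, against 1380 bp for all genes. Their median level in the reference strains was 64.0 TPM, a length-corrected transcript level, against 41.2 for all genes. GQ67_03041 and GQ67_04317 lay within 100 kb of an end, at 82.5 kb and 52.1 kb, the latter named after its values were seen. They are 5.26% of the 38, against 3.97% of all genes.

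There were 4 of the 38 genes directly beside another of them, as 2 pairs transcribed away from each other. The number of such pairs in other sets of 38 genes was not counted, so nothing is read from this number. On chromosome 1 of the authors' Y-11430 assembly, GQ67_02132 (1512012 to 1514099, minus strand) and GQ67_02131 (1514919 to 1517537, plus strand) were 0.819 kb apart. On chromosome 2, GQ67_00217 (353769 to 354494, minus strand) and GQ67_00218 (354838 to 358569, plus strand) were 0.343 kb apart. The genes on the outer sides of these pairs are outside the list. By the rule they could not lie at least 1 log2 unit lower in every condition. GQ67_02133, which overlaps the end of GQ67_02132 by 481 bp on the other strand, differed by 0.71, 0.74 and -0.42 log2 units, and GQ67_02130 beyond GQ67_02131 by -0.22, -0.27 and -0.18. Beside the pair on chromosome 2, GQ67_00216 differed by 0.32, 0.24 and 0.51 and GQ67_00219 by -0.18, 1.09 and -1.01. A further 4 pairs had between 1 and 4 genes between them, namely GQ67_04699 and GQ67_04701, GQ67_01039 and GQ67_01042, GQ67_01558 and GQ67_01554, and GQ67_02355 and GQ67_02360.

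Most genes that flank the 38 were near the level of the reference strains. There were 71 direct neighbours outside the list, and their median differences in Y-17741 were -0.19, -0.03 and -0.04 log2 units in the 3 conditions. At least 1 log2 unit lower were 5 of them at 24 h glycerol, 9 at 48 h and 14 in methanol. These are 7.04%, 12.7% and 19.7%, against 4.37%, 7.78% and 14.4% of all genes. In all 3 conditions 0 were lower. Any such gene at least 50 kb from an end would be among the 38, so nothing is read from this 0. GQ67_04961 beside GQ67_04962, the lowest neighbour at 48 h glycerol and named after its values were seen, differed by 0.07, -3.50 and 2.87 log2 units. The lowest neighbour at 24 h glycerol and in methanol was GQ67_04702 beside GQ67_04701, with -2.17, 0.87 and -3.46. Around it, GQ67_04700 between GQ67_04699 and GQ67_04701 differed by -1.17, -0.28 and -1.25, and GQ67_04703 by -2.36, -0.82 and -2.27, all named after their values were seen. One of the genes just outside the threshold, GQ67_03039, lies near GQ67_03041 on chromosome 3, with GQ67_03040 between them at -0.90, 0.06 and 0.13. There were 11 members that overlap another annotated gene, 9 of them on opposite strands. The sources used here do not say whether counting used strand, so reads in these overlaps could have gone to either gene. The overlap was largest for GQ67_03166, of whose 1311 bp 1280 bp are shared with GQ67_03165.

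**Figure D2:**
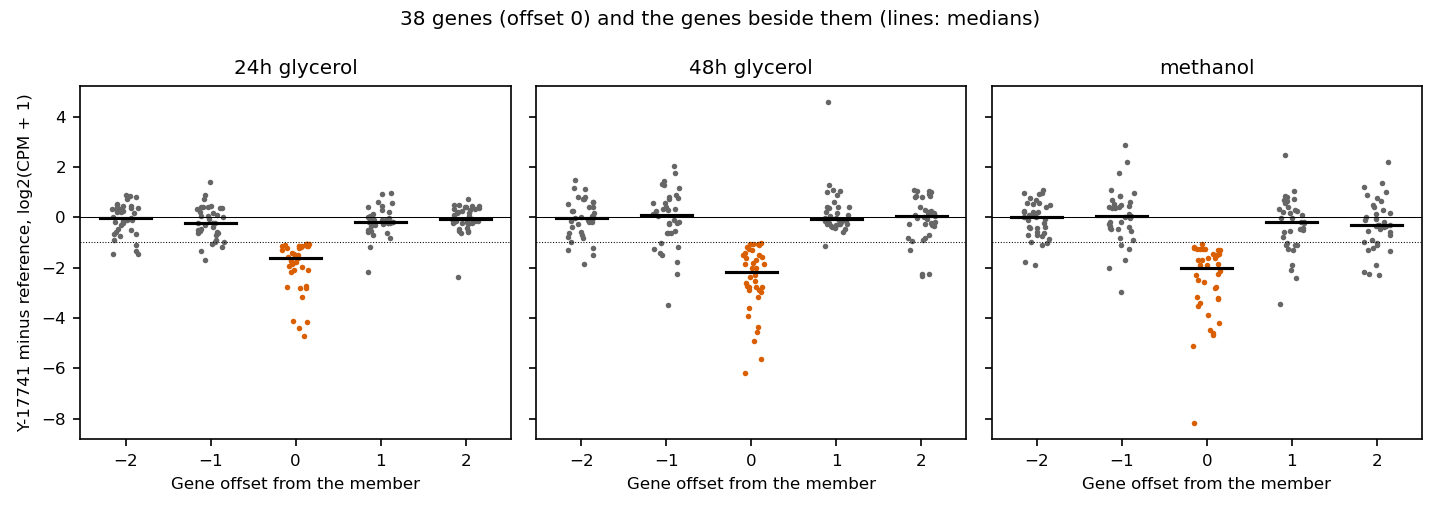
Difference of Y-17741 from the reference strains in log2(CPM + 1) for the 38 genes (offset 0, orange) and for the genes at 1 and 2 places on either side that are not among the 38 (grey), with medians as lines and the threshold dotted. The medians over the direct neighbours were -0.19, -0.03 and -0.04, and single neighbours ranged from -3.50 to 4.58 at 48 h glycerol.

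GQ67_00432 (chromosome 2, 721421 to 722779, minus strand) was at its highest at 48 h glycerol in the reference strains and lower in Y-17741 in all conditions. In Y-17741 it had 360, 473 and 509 CPM at 24 h glycerol, 932 and 967 at 48 h and 245, 131, 47.4 and 151 in methanol. The reference libraries ran from 669 to 2592 CPM at 24 h glycerol, from 3391 to 5585 at 48 h and from 2368 to 3223 in methanol, with medians of 1001, 5360 and 2739. The strains did not overlap in any condition, and the difference grew from -1.40 log2 units at 24 h glycerol to -2.39 and -4.46. The level of GQ67_00432 at 24 h glycerol was as low elsewhere, with 776, 205 and 240 CPM in YB-378 and 251 to 563 CPM in Y-7556 and YB-4290. In the later conditions every library of the other strains lay above those of Y-17741, YB-378 with 4520, 4706 and 4471 CPM at 48 h and 2026 and 2157 in methanol, and GS115 with as little as 923 in methanol.

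GQ67_03041 (chromosome 3, 82461 to 84602, minus strand) was lower in Y-17741 than in every library of the other strains, in each condition. It had 98.7, 164 and 191 CPM at 24 h glycerol, 81.9 and 67.5 at 48 h and 32.5, 25.2, 31.0 and 34.0 in methanol. The reference medians were 993, 2234 and 1696 CPM, with lowest libraries of 621, 1488 and 282. YB-378 had 806, 1891 and 1664 CPM at 24 h glycerol, 3494, 4614 and 3625 at 48 h and 1881 and 1692 in methanol, all above the Y-17741 libraries. Its differences of -2.77, -4.93 and -5.13 log2 units were the third-deepest mean among the 38 genes. This gene shares 313 bp with GQ67_03040 on the other strand.

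GQ67_01840 (chromosome 1, 2021712 to 2022602, minus strand) showed the same pattern at a lower level. Y-17741 had 22.2, 25.8 and 26.6 CPM at 24 h glycerol, 4.82 and 4.998 at 48 h and 24.4, 15.4, 11.4 and 19.7 in methanol. The reference libraries ranged from 95.2 to 209 CPM, from 184 to 470 and from 104 to 262. YB-378 was well above Y-17741, with 258, 530 and 317 CPM at 48 h and 655 and 569 in methanol. GQ67_02360 (chromosome 1, 201477 to 203742, plus strand) differed most at 48 h glycerol, where Y-17741 had 3.70 and 4.998 CPM and the reference libraries 96.5 to 149. At 24 h glycerol it was low in both, with 4.05, 4.08 and 5.41 CPM against 6.66 to 21.4.

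The level of GQ67_04499 (chromosome 4, 406576 to 408489, minus strand) was highest in methanol in Y-17741, as in the reference strains, but lay below theirs. It had 3.58, 5.44 and 5.20 CPM at 24 h glycerol, 23.7 and 32.5 at 48 h and 1490, 625.2, 670 and 733 in methanol. The reference medians were 17.9, 441 and 3195 CPM, and the groups did not overlap in any condition. Methanol levels were higher still in YB-378, at 9596 and 9862 CPM, and in Y-7556 and YB-4290, at 9734 to 13058. Y-17741 was not the lowest strain in methanol, as the mean of GS115 differed from it by -1.12 log2 units.

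Several members were close to the detection limit in Y-17741. GQ67_01558 (chromosome 1, 2495022 to 2496754, plus strand) had 2.39, 2.99 and 4.76 CPM at 24 h glycerol, counts of 0 in both libraries at 48 h and 2.4998, 1.29, 0.41 and 2.04 CPM in methanol. The reference strains averaged 83.2 ± 45.5 (SD, n = 9), 82.3 ± 39.3 (n = 7) and 37.1 ± 12.3 CPM (n = 10). At 48 h glycerol a floor of 3 counts over the group corresponds to 0.857 CPM, and the reference mean was at least 96.0-fold higher. GQ67_00603 (chromosome 2, 1019808 to 1021910, minus strand) had 16 counts in all over the 9 Y-17741 libraries, the fewest of the 38 genes, and was at 0 in 4 of them. Its reference medians were 4.92, 11.2 and 11.1 CPM. There were 7 members with a count of 0 in at least 1 Y-17741 library and 0 members at 0 in all 9, and 32 had at least 100 counts over these libraries.

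The deepest mean difference belonged to GQ67_00198 (chromosome 2, 316347 to 321461, plus strand), the longest member with a single exon of 5115 bp. Y-17741 had 0.95, 2.72 and 1.299 CPM at 24 h glycerol, 57.8 and 70.0 at 48 h and 1.25, 0.51, 0.41 and 0 in methanol. The reference libraries ran from 56.2 to 77.0 CPM at 24 h glycerol, from 100.1 to 758 at 48 h and from 22.0 to 2047 in methanol. The 3 lowest values in methanol, 22.0, 25.4 and 51.7 CPM, were those of the libraries that lay apart, and the other 7 had at least 688 CPM. The differences were -4.74, -2.54 and -8.18 log2 units.

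The 38 genes had wider ranges than the median gene among the strains that the rule did not use. Over those 7 strains, which are YB-378, YB-4289, Y-11430, GS115, X-33, YB-4290 and Y-7556, the highest strain mean exceeded the lowest by a median of 1.54 log2 units, against 0.71 for all genes. The range was at least 2 log2 units for 14 members, or 36.8%, against 3.43% of all genes. Y-17741 was the lowest of all 11 strains in every condition for 15 members, or 39.5%, against 2.74% of all genes, but the rule itself sets Y-17741 below the mean of 3 of those strains, so nothing is read from this count. For the other 23, at least 1 strain lay lower in at least 1 condition. GQ67_04962 (chromosome 4, 1187305 to 1188161, minus strand) is such a case. Its level at 48 h glycerol was 65.9 and 58.7 CPM in Y-17741 but between 1.57 and 11.9 CPM in all libraries of YB-378, YB-4289, Y-7556 and YB-4290, and 22.8 to 26.9 in X-33. Y-11430 had 506 to 830 CPM and the reference median was 627.

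**Figure D3:**
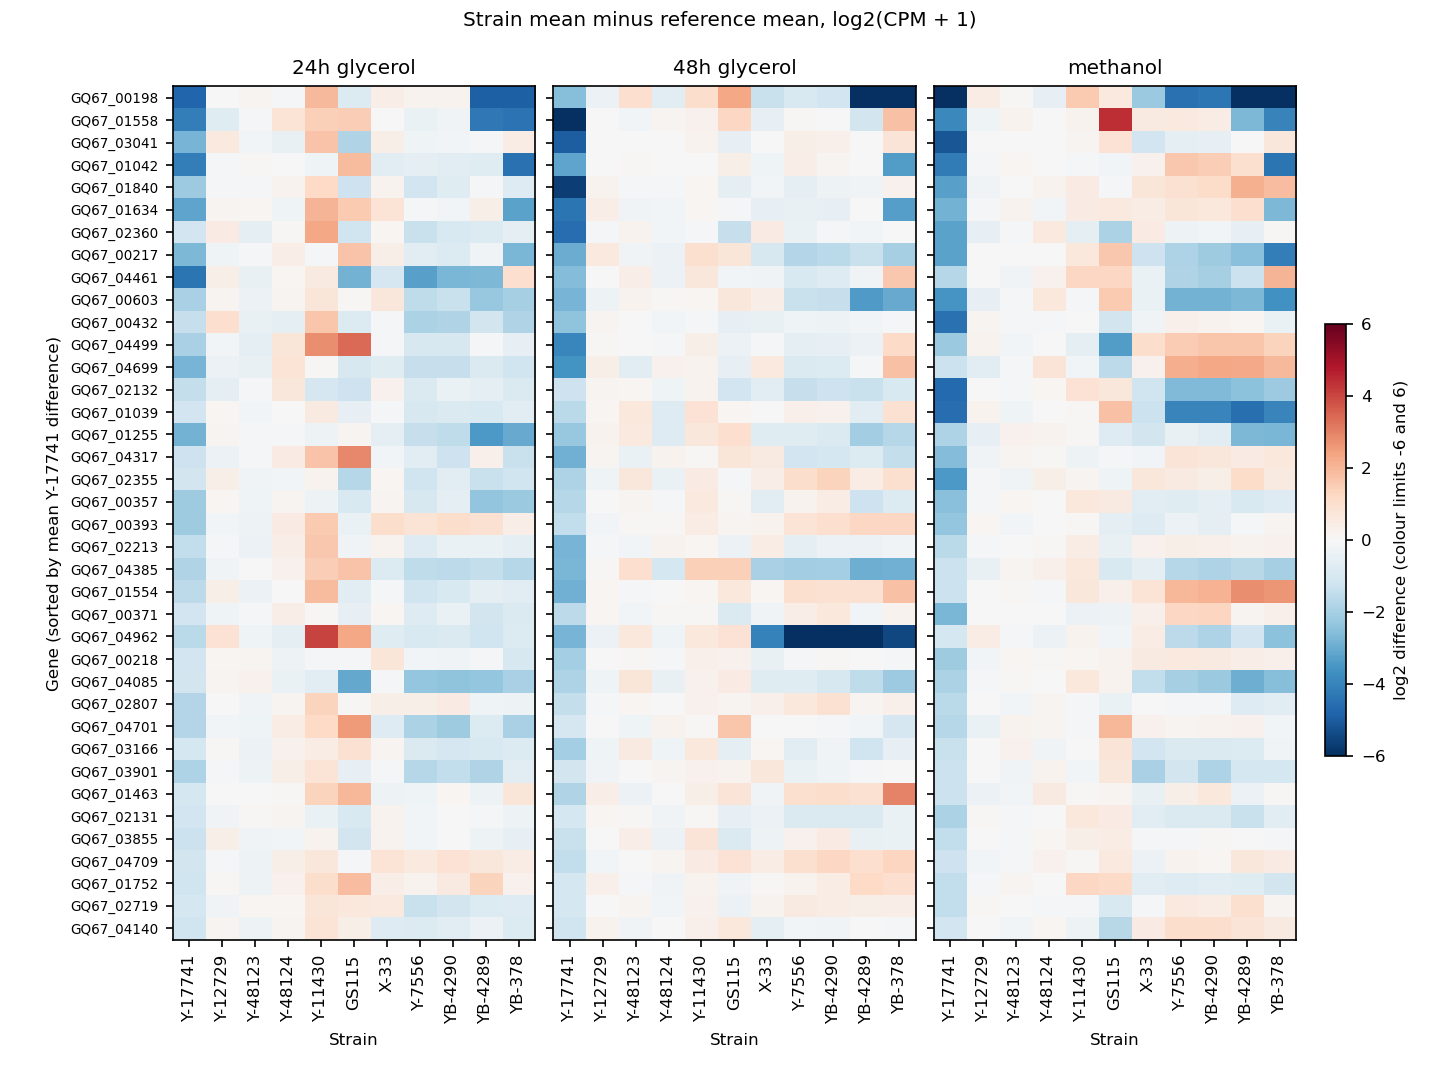
Strain mean minus the mean of Y-12729, Y-48123 and Y-48124 in log2(CPM + 1) for the 38 genes (rows) and 11 strains (columns) in each condition, where blue is lower and red is higher and colours stop at -6 and 6. The Y-17741 column is blue throughout by the choice of genes, and the cells of GQ67_00198 in YB-378 and YB-4289 are at -4.89 or lower in every condition.

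Several members that were low in Y-17741 were also low in YB-378 and YB-4289. Measured from the same reference strains, YB-378 lay at least 1 log2 unit lower in all 3 conditions for 8 members, against 0.464% of the 4961 genes away from the ends, and YB-4289 for 7, against 0.544%. Y-7556 and YB-4290 did so for 2 each, against 0.161% and 0.181%, and GS115 for 1, against 0.121%. These differences share the reference libraries with the rule, so they are given as values only. The median of the 38 genes in YB-378 was -0.81 log2 units at 24 h glycerol, -0.09 at 48 h and -0.19 in methanol, against medians over all genes of -0.05, 0.23 and 0.07. In Y-11430 the medians were 0.81, 0.27 and 0.09, against -0.05, 0.10 and 0.10 over all genes.

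GQ67_01042 (chromosome 2, 1850770 to 1852920, minus strand) separated Y-17741 and YB-378 from the other 9 strains. Y-17741 had 21.7, 31.0 and 31.0 CPM at 24 h glycerol, 36.3 and 37.5 at 48 h and 27.8, 22.4, 23.7 and 20.4 in methanol. YB-378 had 16.8, 34.0 and 18.3 CPM, then 46.4, 31.1 and 23.4, and 16.7 and 26.5 in methanol. The lowest library of the other 9 strains had 253 CPM at 24 h glycerol, 221 at 48 h and 296 in methanol. GQ67_01634 (chromosome 1, 2352425 to 2354612, minus strand) was the only other member with this pattern in all 3 conditions. Its highest library in Y-17741 and YB-378 had 2.99, 12.2 and 24.5 CPM in the 3 conditions, and the lowest library of the other strains had 9.66, 53.0 and 54.2. Libraries of both strains lay below all others for 4, 3 and 2 members, against 0.528%, 0.469% and 0.195% of all genes. The rule itself sets Y-17741 below the reference strains, which are among those others, so nothing is read from these counts.

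**Figure D4:**
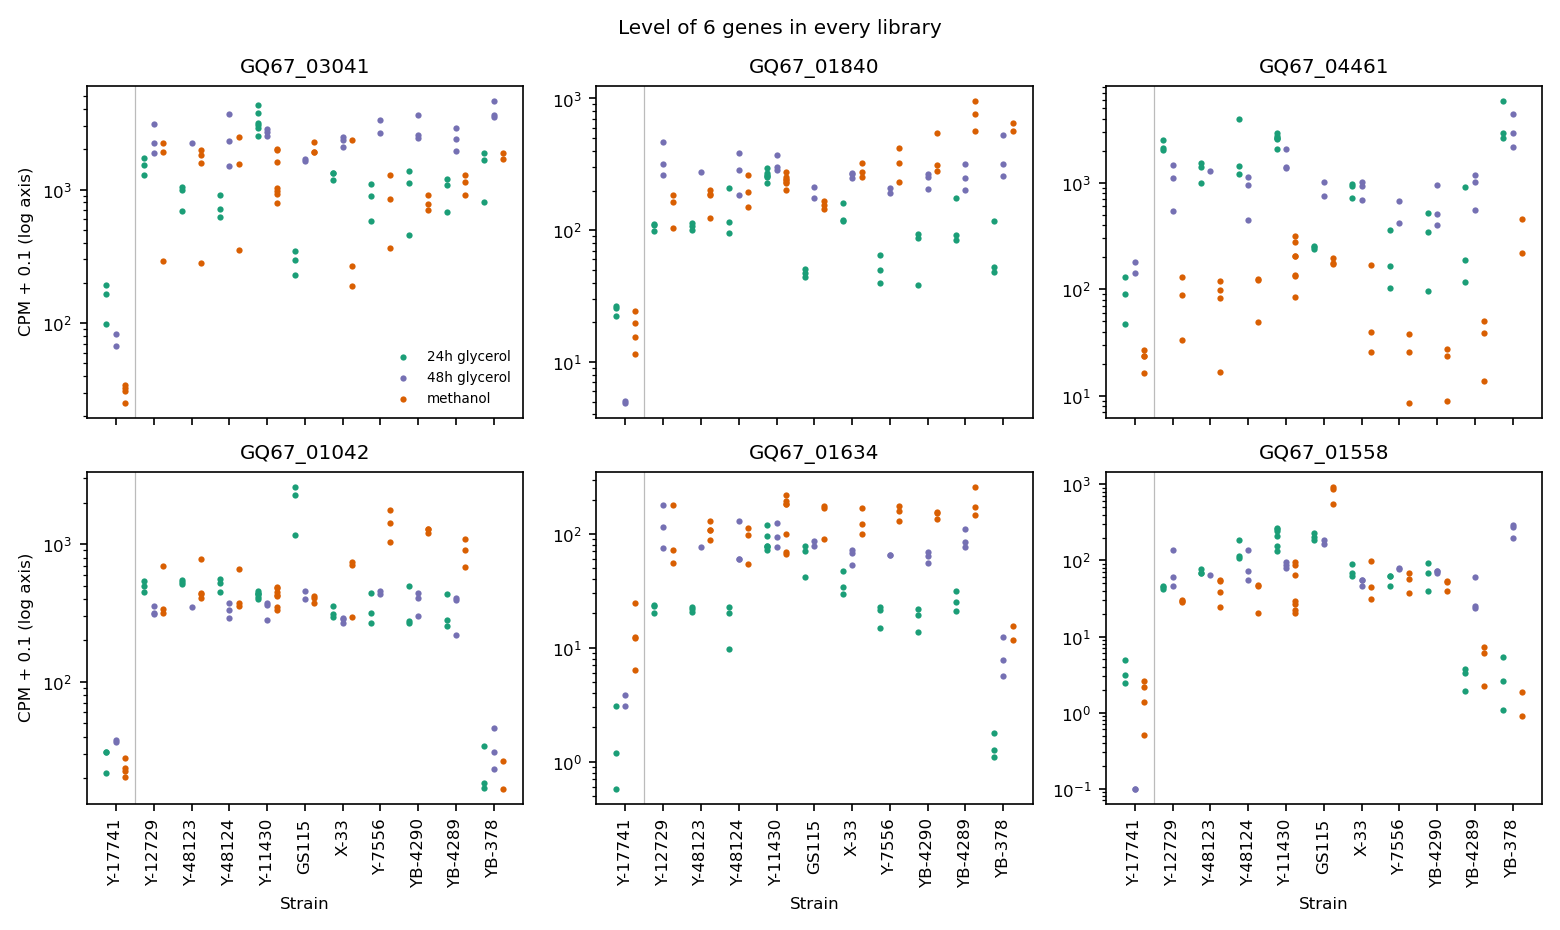
CPM with 0.1 added, on log axes, of 6 members in every library of the 11 strains, coloured by condition, with Y-17741 left of the grey line. The upper row shows genes whose YB-378 libraries lie above those of Y-17741 in every condition, the lower row shows GQ67_01042 and GQ67_01634, which are low in Y-17741 and YB-378 in every condition, and GQ67_01558, which in YB-378 is high at 48 h glycerol, with 199, 274 and 291 CPM.

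YB-378 was set against Y-7556 and YB-4290, so that no Y-17741 or reference library entered the means compared, although all libraries entered the filter, the scaling and the estimate of the spread. A gene was called where the Benjamini-Hochberg adjusted p-value of edgeR's quasi-likelihood test over all genes was under 0.05 and the log2 fold change was at least 1 in size. At 24 h glycerol 7 of the 38 genes were lower in YB-378, against 1.02% of all genes, and 2 were higher, against 0.957%. With replicate letters, which pair the libraries in this comparison, as a block, GQ67_01463 was called higher as well, at the threshold of 1 log2 unit (edgeR adjusted p = 0.038), and it was named after its values were seen. There were 8 lower at 48 h glycerol, against 2.73%, and 5 higher, against 2.5%. In methanol 5 were lower, against 0.714%, and 1 higher, against 0.535%. The median fold changes of the 38 genes were small, at -0.07, 0.04 and -0.42 log2 units, against -0.01, 0.03 and 0.01 over all genes tested, so the calls came from part of the genes. The count at 48 h glycerol fell to 5 without YB-378 replicate B, the library of 16336681 counts, and that in methanol to 3 without either of the only 2 YB-378 libraries.

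Lower in all 3 conditions were GQ67_01042, GQ67_01634 and GQ67_01255, against 0.28% of the 5000 genes tested in all 3, and the last of them was named after its values were seen. GQ67_01042 had fold changes of -3.91 ± 0.32 (SE), -3.74 ± 0.26 and -6.11 ± 0.58 log2 units (edgeR adjusted p = 5.8e-10, 1.1e-09 and 1.3e-08). The libraries of Y-7556 and YB-4290 had 269 to 494 CPM at 24 h glycerol and 1032 to 1758 in methanol, with no overlap with YB-378. GQ67_01634 had fold changes of -3.78 ± 0.43, -3.07 ± 0.33 and -3.66 ± 0.54 (adjusted p = 2.1e-07, 7.6e-07 and 3.9e-05). GQ67_01255 (chromosome 2, 2214760 to 2215746, minus strand) had fold changes of -2.60 ± 0.51, -2.54 ± 0.86 and -3.48 ± 0.69 (adjusted p = 0.0011, 0.039 and 0.0030). Its libraries overlapped between the strains at 48 h glycerol, at 0 to 1.36 CPM against 1.19 to 3.14. GQ67_01255 averaged 12.9 ± 3.19 CPM over the libraries of the reference strains at 24 h glycerol (SD, n = 9). It had 0 counts in both Y-17741 libraries at 48 h glycerol.

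GQ67_00198 was lower in YB-378 than in Y-7556 and YB-4290 at both glycerol times. YB-378 had 0.99, 2.76 and 0.63 CPM at 24 h glycerol, and the libraries of Y-7556 and YB-4290 had 69.2 to 88.5, a fold change of -5.68 ± 0.34 log2 units (edgeR adjusted p = 2.1e-13). In the 48 h glycerol libraries YB-378 had 14.7, 0 and 1.91 CPM against 108 to 333, or -5.64 ± 0.96 (adjusted p = 3.8e-04). It was not called in methanol, with 0.60 CPM in both YB-378 libraries and 12.8 to 35.2 CPM in the other strains, a fold change of -5.14 (edgeR adjusted p = 0.23), though DESeq2 called it (adjusted p = 0.015). GQ67_00217 of the pair on chromosome 2 was lower at 24 h glycerol, with 0.66, 1.15 and 0.42 CPM against 4.65 to 8.07, or -2.97 ± 0.37 (adjusted p = 1.3e-06). Its partner GQ67_00218 was not called in any condition.

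GQ67_00603 was called lower in YB-378 at 48 h glycerol, with -2.97 ± 0.43 log2 units (edgeR adjusted p = 3.3e-05), and in methanol. In methanol both YB-378 libraries were at 0, which makes Y-7556 and YB-4290 at least 2.33-fold higher at a floor of 3 counts over the group. That call was lost when replicate letters, which pair the libraries in this comparison, were taken as a block (adjusted p = 0.074).

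The level of GQ67_01558 in YB-378 depended on the condition. At 24 h glycerol YB-378 had 0.99, 5.29 and 2.53 CPM against 39.6 to 93.4 in Y-7556 and YB-4290, a fold change of -4.26 ± 0.31 log2 units (edgeR adjusted p = 2.1e-11). In contrast, it had 199, 274 and 291 CPM at 48 h glycerol against 68.8 to 78.6, or 1.66 ± 0.32 (adjusted p = 9.3e-04). In methanol it had 1.78 and 0.80 CPM against 37.3 to 68.3, or -5.50 ± 0.73 (adjusted p = 8.5e-06). The groups did not overlap in any condition.

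GQ67_04461 (chromosome 4, 330576 to 333578, plus strand) was the only member higher in YB-378 in all 3 conditions, against 0.08% of the genes tested. YB-378 had 5866, 2615 and 2907 CPM at 24 h glycerol, and Y-7556 and YB-4290 had 95.4 to 516, a fold change of 3.91 ± 0.48 log2 units (edgeR adjusted p = 9.2e-07). The fold change was 2.34 ± 0.33 at 48 h and in methanol 3.80 ± 0.50 (adjusted p = 2.2e-05 and 8.5e-06). Y-17741 had 47.7, 91.1 and 132 CPM at 24 h glycerol and the reference libraries 1005 to 3936. Also higher in YB-378 at 48 h glycerol were GQ67_04499 and GQ67_04699, by 1.60 ± 0.17 and 2.55 ± 0.43 (adjusted p = 7.2e-07 and 2.8e-04).

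**Figure D5:**
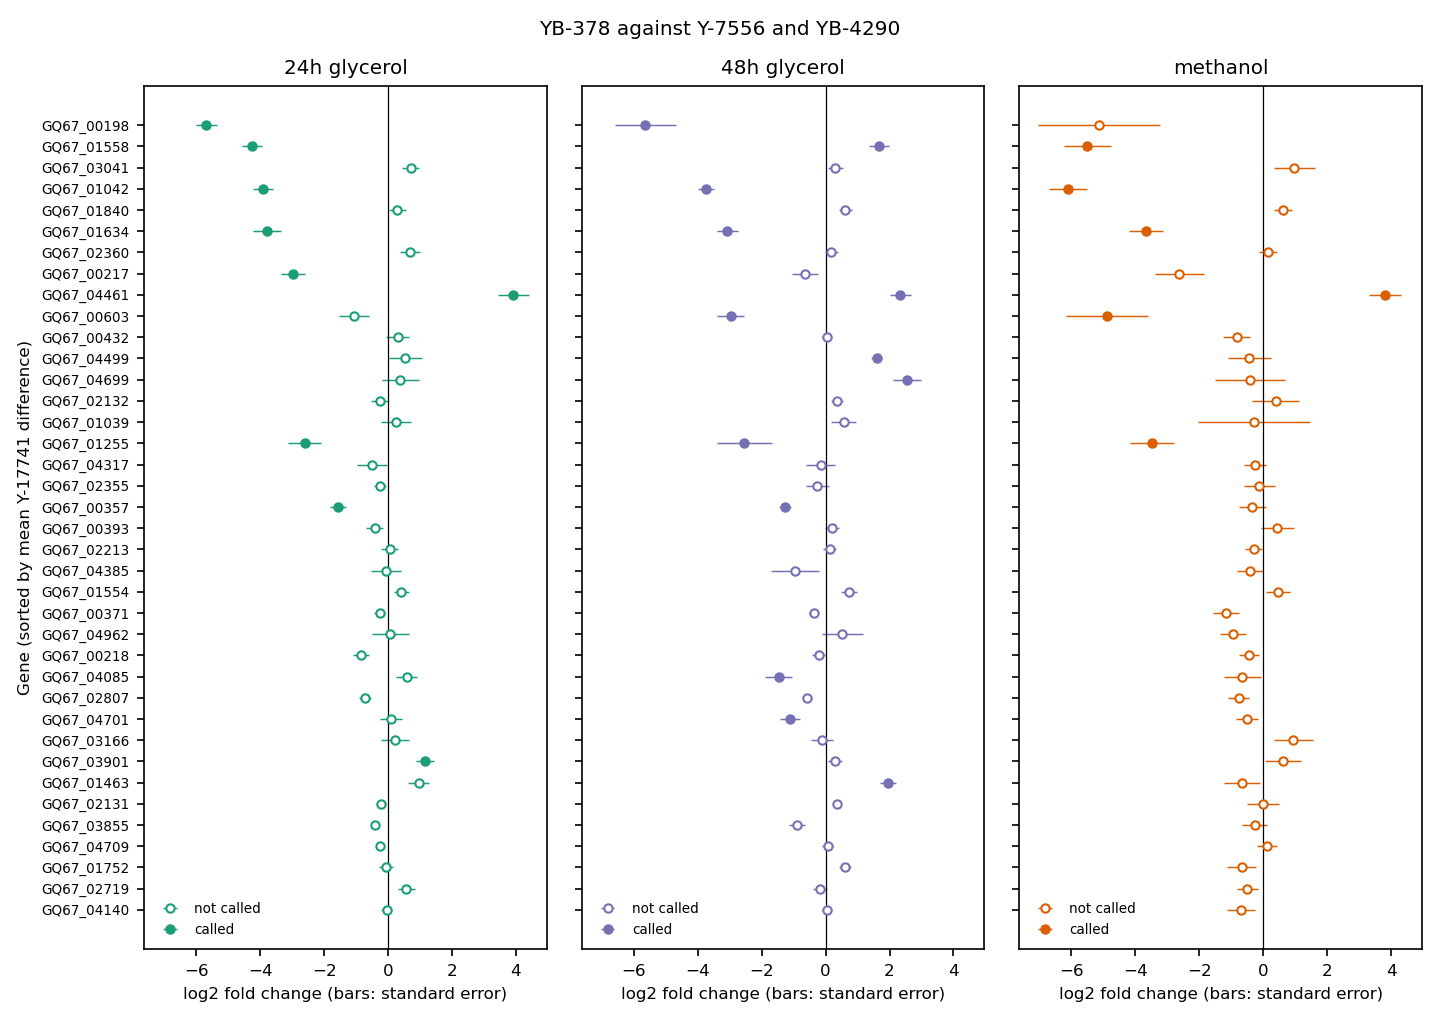
Fold change in log2 units of YB-378 against Y-7556 and YB-4290 for the 38 genes in each condition, with standard errors as bars and called genes filled. GQ67_01042 and GQ67_01634 are filled on the left in all 3 panels, and GQ67_04461 is filled on the right in all 3.

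YB-378 was also set against Y-11430, the strain of the reference assembly. At 24 h glycerol 28 members were lower in YB-378, against 15.2% of all genes. By edgeR 0 were higher, against 13.5% of all genes, with 0 at an unadjusted p-value under 0.05 and 0 by DESeq2. There were 14 lower and 4 higher at 48 h glycerol, against 6.08% and 5.27%, and in methanol 15 were lower and 4 higher, against 13.1% and 12.8%. DESeq2 called 3 higher in methanol. Median fold changes of the 38 genes were -1.68, -0.28 and -0.31 log2 units, against 0.02, 0.04 and 0.02 over all genes tested. Lower in all 3 conditions were 10 members, against 1.22% of the 5000 genes tested in all 3, and the 5 of them with the largest mean fold change were GQ67_00198, GQ67_00603, GQ67_01634, GQ67_04962 and GQ67_00217. GQ67_04962 had fold changes of -5.06 ± 0.54, -6.25 ± 0.75 and -2.61 ± 0.46 (edgeR adjusted p = 2.9e-09, 5.1e-06 and 7.7e-05).

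Against the same Y-11430 libraries, Y-7556 and YB-4290 had 26 members lower at 24 h glycerol, 7 at 48 h and 14 in methanol, against 15.4%, 2.38% and 16.3% of all genes. Higher were 7 members in methanol, against 14.3%, and 0 at 24 h and 48 h glycerol, against 13.2% and 1.68%, where 1 and 5 had an unadjusted p-value under 0.05 and DESeq2 called 0. Lower in all 3 conditions were 4 members, against 0.64% of the 5000 genes, namely GQ67_00603, GQ67_04461, GQ67_04962 and GQ67_04385, the last named after its values were seen. Both comparisons share the Y-11430 libraries. In the 6 Y-11430 libraries at 24 h glycerol the 38 genes had a median 0.81 log2 units above the reference strains, against -0.05 over all genes. At least 1 log2 unit above lay 18 of the 38. The share of all genes that did so was not counted, and the rule used the reference libraries, so nothing is read from the 18. The 7 Y-11430 methanol libraries fell into 2 sets, and the count of members lower in YB-378 than in Y-11430 in methanol was 13 without replicates A, C and F and 16 without B, D, E and G.

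YB-4289 differed from Y-7556 and YB-4290 in fewer members than YB-378 did, and also in a smaller share of all genes. Lower were 5 members at 24 h glycerol, 3 at 48 h and 2 in methanol, against 0.598%, 0.832% and 0.436% of all genes. Higher were 2 and 1 at 24 h glycerol and in methanol, against 0.478% and 0.258%, and 0 at 48 h glycerol, against 0.515%, where 1 had an unadjusted p-value under 0.05 and DESeq2 called 0. GQ67_00198 was again the deepest at 24 h glycerol, with 0.88, 2.44 and 0.77 CPM and a fold change of -5.79 ± 0.34 log2 units (edgeR adjusted p = 3.9e-13). GQ67_01558 was lower at 24 h glycerol and in methanol, by -4.37 ± 0.31 and -2.96 ± 0.52 (adjusted p = 1.4e-11 and 0.0011). GQ67_01042 and GQ67_01634, low in Y-17741 and YB-378, had 253 to 436 and 21.1 to 31.1 CPM in YB-4289 at 24 h glycerol and were not called. Without the libraries of Y-17741 and the reference strains in the fit, chosen after seeing the data, 8 members were lower at 48 h glycerol in place of 3, and 1 was higher at 24 h glycerol in place of 2. The count in methanol was 1 with the replicate letters, which pair these libraries, as a block. This comparison shares Y-7556 and YB-4290 with that of YB-378.

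Between conditions, the 7 strains that the rule did not use were averaged with equal weights. From 24 h to 48 h glycerol 21 of the 38 genes rose, against 14.4% of all genes, and 1 fell, against 15%. The median change was 1.10 log2 units, against -0.01 over all genes. GQ67_04499 and GQ67_02360 rose most, by 3.78 and 3.72 log2 units (edgeR adjusted p = 7.1e-26 and 1.1e-40), and GQ67_04085 fell by 1.16 (adjusted p = 9.6e-08). In Y-17741 GQ67_02360 had 4.05, 4.08 and 5.41 CPM at 24 h and 3.70 and 4.998 CPM at 48 h. Over the 38 genes, the median difference between 48 h and 24 h glycerol was 0.25 in Y-17741 and 0.79 in the reference strains, both from strain means and without a test.

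In methanol against 48 h glycerol, 11 of the 38 genes were higher, against 15.4% of all genes, and 15 were lower, against 13.4%. The largest rises were those of GQ67_04499 by 4.09, GQ67_00217 by 3.02 and GQ67_04962 by 3.02 log2 units (edgeR adjusted p = 1.9e-25, 7.8e-21 and 1.0e-19). The largest falls were those of GQ67_01039, which fell by 4.71 (adjusted p = 1.0e-15), and GQ67_04461, which fell by 3.65 (adjusted p = 2.3e-23). GQ67_01039 (chromosome 2, 1846870 to 1847732, minus strand) had 0.26 to 10.3 CPM in all methanol libraries of Y-7556, YB-4290, YB-4289 and YB-378, which overlaps the 1.02 to 2.19 CPM of Y-17741. Among the reference libraries its methanol level ranged from 0.37 to 268 CPM.

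Among the remaining abundant members, GQ67_04085 (chromosome 3, 1875967 to 1877514, minus strand) was not lowest in Y-17741 among all strains. Y-17741 had 673, 712 and 748 CPM at 24 h glycerol, and Y-7556 and YB-4290 had 179 to 455. GQ67_00393 (chromosome 2, 660073 to 661897, plus strand) had 49.4, 51.1 and 62.6 CPM in Y-17741 at 24 h glycerol, and the lowest library of any other strain there had 174. GQ67_02213 (chromosome 1, 1357637 to 1359922, minus strand) had 147 and 215 CPM in Y-17741 at 48 h glycerol, against 960 to 2141 in the reference libraries. In the divergent pair on chromosome 1, GQ67_02132 had 3.12, 3.34, 0.82 and 2.38 CPM in Y-17741 in methanol, and its partner GQ67_02131 had 24.1, 34.7, 30.2 and 33.6. The reference medians in methanol were 152 and 184 CPM, with lowest libraries of 5.86 and 23.4 in Y-48123 methanol C.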

How the data were processed

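RNA from cultures of 11 strains was sequenced as short reads from KAPA HyperPrep libraries. The authors aligned reads with STAR 2.5.3a and quantified genes with RSEM 1.3.0 on their Y-11430 assembly, and they deposited expected counts, of which 100% were whole numbers, and log2(TPM + 1) values. Deposited coordinates came from the authors' annotation, in which 51 of 5167 genes had no values. Strain, condition and replicate letter came from the labels. The labels do not say whether replicates were separate cultures, so p-values measure only the spread between libraries, which may be technical. The 38 genes and all lists were chosen with earlier results of these data known.

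CPM were computed from column sums, and the log2 values of the authors served as an alternative. Contrasts between strains were fitted to the expected counts with edgeR 4.0.16 in R 4.3.3 (TMM, filterByExpr, robust quasi-likelihood F test, two-sided), with 1 model per condition over all libraries and a mean per strain, for 5018, 5046 and 5045 genes. A model over all libraries tested conditions for 5087 genes. On simulated counts for YB-378 against Y-7556 and YB-4290 at 24 h glycerol, with 5004 genes and 200 of them changed by 2 log2 units, 198 (99%) of the changed genes and 2 others were called. The simulated libraries were independent, whereas replicate letters pair the measured ones. Changes near the threshold of 1 log2 unit were not simulated, so the share called does not cover them. All 38 genes passed the filter in every model. Alternatives were RLE size factors, no count filter, DESeq2 1.42.0, replicate letters as a block, single libraries left out and, chosen after seeing the data, sets of libraries that lay apart and a fit without Y-17741 and the reference strains.

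Replicate letters were checked as pairs by correlating deviations from group means. Every pair lay above 0.1 in 4 comparisons, those of YB-378 or YB-4289 with Y-7556 and YB-4290 at 24 h glycerol and in methanol (0.12 to 0.79), where the letters were taken to pair the libraries. Named genes were the 12 most abundant in the reference strains, the 10 with the lowest mean difference, those next to each other with their neighbours, the 3 on either side of the threshold, and the 5 in each direction with the largest change in YB-378 against Y-11430. Floors of 3 counts cover counting error only. Sequences are not shown, as no genome was used here.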

Additional observations from a re-analysis of the deposited data

Results flagged for a closer look

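Dixon's test was run on log2(CPM + 1) of the 22 named members in the 4 groups of at least 4 libraries, which made 88 tests. In 14 of them the value of a single library stood out. Chance gives about 1 in 20 for independent tests. Genes measured in the same library are not independent, so the 14 are not set against that rate. Of these values, 9 were those of the library Y-48123 methanol C. It was the lowest of 4 libraries for GQ67_00198 (22.0 CPM, others 890 to 1820), GQ67_01039 (0.37, others 122 to 218), GQ67_02131 (23.4, others 177 to 197), GQ67_02132 (5.86, others 144 to 199), GQ67_03041 (282, others 1591 to 1985), GQ67_04085 (48.3, others 271 to 294) and GQ67_04962 (133, others 411 to 454). It was the highest for GQ67_01042 (785 CPM, others 403 to 443) and GQ67_04499 (6038, others 2800 to 3130). These values enter the reference means in methanol.

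The library Y-11430 24 h glycerol B was the lowest of 6 for GQ67_02360 (45.7 CPM, others 60.3 to 68.0) and the highest for GQ67_04701 (119, others 72.5 to 78.4) and GQ67_04962 (227, others 135 to 164). Y-11430 methanol A was the highest of 7 for GQ67_02132 (209 CPM, others 126 to 151). Y-17741 methanol B, with 0.26 CPM for GQ67_00603, was the only one of 4 libraries above 0, a value that rests on 1 count.

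Among the 22 named members, 3 had a strain contrast with opposite directions in different conditions and no overlap of the libraries. Among the other 16, named here after their values were seen, GQ67_01554 and GQ67_04317 did so in YB-378 and in Y-7556 and YB-4290, each against Y-11430, and GQ67_04140 and GQ67_04699 in the latter. The higher call of GQ67_04317 in YB-378 in methanol, at 1.01 log2 units, lay at the threshold. It was lost with RLE size factors and DESeq2 (0.98 each), only the 7 strains outside the rule (0.94) and the replicate block (0.86). With the block, GQ67_04699 also lost its higher call in methanol in Y-7556 and YB-4290. The difference between conditions was not tested. The share of all genes with opposite directions and no overlap was not counted, so nothing is read from these numbers of members. GQ67_01558 in YB-378 against Y-11430 had fold changes of -6.10 log2 units at 24 h glycerol, 1.43 at 48 h and -5.27 in methanol, and -4.26, 1.66 and -5.50 against Y-7556 and YB-4290. GQ67_01840 in YB-378 against Y-11430 had -1.84 at 24 h glycerol and 1.41 in methanol. GQ67_04499 had -3.42 and 1.91 in YB-378 against Y-11430 in those conditions, and -3.96 and 2.34 in Y-7556 and YB-4290 against Y-11430, both resting on the same Y-11430 libraries.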

How the results depend on the processing

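The number of genes that met the rule was 45 with log2(TPM + 1), 47 with a pseudocount of 0.5, 42 with TMM-scaled CPM and 42 without the 4 reference libraries that lay apart, and 34, 38, 37 and 36 of the 38 genes were among them. Leaving out single libraries gave 33 to 48 genes, with 33 without Y-17741 48 h glycerol B and 48 without Y-17741 methanol D. There were 25 of the 38 genes that remained whichever of 34 libraries was left out. The single Y-48123 library at 48 h glycerol was not left out in turn.

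Of 398 alternative counts of members called lower between strains or called between conditions, 384 were within 1.5 times the value reported. With the replicate block, members lower in YB-4289 than in Y-7556 and YB-4290 numbered 5 at 48 h glycerol in place of 3, where letters did not pair the libraries, and 1 in methanol in place of 2. The other such counts under the block lay within 1.5 times. Of members called higher between strains, GQ67_02355 was gained in Y-7556 and YB-4290 against Y-11430 at 48 h glycerol, 1 in place of 0, where letters did not pair the libraries (log2 fold change 1.20, adjusted p = 0.014). With only the 7 strains outside the rule in the fit, chosen after seeing the data, members lower in YB-4289 at 48 h glycerol numbered 8. Leaving out single libraries gave ranges of 25 to 29, 12 to 15 and 12 to 15 members lower in YB-378 than in Y-11430 in the 3 conditions in order of sampling. Against Y-7556 and YB-4290 the ranges were 7 to 7, 5 to 8 and 3 to 6 for YB-378, and 4 to 5, 3 to 4 and 1 to 2 for YB-4289, where leaving out any of 7 single libraries in methanol gave 1. With a YB-378 methanol library left out, the lone remaining library was assumed to vary like the other groups. For Y-7556 and YB-4290 against Y-11430 they were 25 to 26, 6 to 9 and 12 to 14. Members higher and lower in methanol than at 48 h glycerol numbered 10 to 11 and 13 to 17, and from 24 h to 48 h glycerol 19 to 23 rose and 1 to 2 fell, with 2 without YB-378 48 h glycerol A.

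For 132 calls of named members, 2835 of 2930 alternative values kept direction and call, 95 kept the direction but lost the call and 0 reversed. The lost calls belonged to 22 comparisons, most often that of GQ67_01042 between methanol and 48 h glycerol, whose log2 fold change of 1.01 lies at the threshold. The cause was not tested. Counts limit GQ67_00603, GQ67_01255 and GQ67_03166 most, with 16, 39 and 36 counts over the Y-17741 libraries.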
